A study of Mus musculus with 12 samples.

Results

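In all, 10 genes of innate nucleic acid sensing, chosen by symbol, were followed through RNA sequencing of Myc-CaP cells and Myc-CaP tumors: Cgas, Ifih1, Sting1, Mavs, Tbk1, Ikbke, Irf3, Trex1, Samhd1 and Enpp1. These 10 genes are among the 40077 genes of the cell table and the 34508 genes of the tumor table. Of the 10, 9 were found by symbol among the tumor genes, and Sting1 was found by its identifier, since it is listed there under the older symbol Tmem173. Myc-CaP is a mouse prostate cancer line derived from a tumor that overexpresses MYC in the prostate. Cultured cells were treated with DMSO or with YJ1206, an orally available PROTAC that degrades CDK12 and CDK13, at 1 μM for 24 hours. The tumors were subcutaneous Myc-CaP tumors of FVB mice that received vehicle or YJ1206, which was dosed orally 3 times per week at 100 mg/kg. FVB mice have an intact immune system, and the age of the mice is not given in the sources used here. Each of the 4 groups had 3 libraries.

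Cytosolic DNA is sensed by cGAS, which makes the second messenger cGAMP and thereby activates STING at the endoplasmic reticulum. Long double-stranded RNA is sensed by MDA5, the product of Ifih1, which signals through MAVS on mitochondria. Both adaptors recruit the kinases TBK1 and IKKε (Ikbke), which phosphorylate IRF3 and so switch on type I interferon genes. TREX1 removes cytosolic DNA, SAMHD1 removes deoxynucleotides and acts at stalled replication forks, and ENPP1 hydrolyses cGAMP outside the cell. The comparisons addressed which of these transcripts the cancer cells carry themselves, which come with the tumor, and which move with YJ1206.

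Upstream sequences of 4 members are shown, all from RefSeq on build GRCm38.p6, 5′ to 3′ on the strand of the gene and up to its first annotated exon. For Ifih1 a stretch of 30 bases from within its first exon, transcribed bases 21 to 50, is added because it holds a match. Cgas and Mavs were chosen because they changed in cells, Ifih1 because it was read only in tumors, and Samhd1 because it was the most abundant member. Capitals mark a motif match. RefSeq promoter windows of 300 bases were matched for 9 members, and 3 motifs were searched on both strands.
Cgas, chr9:78443238-78443487, minus strand: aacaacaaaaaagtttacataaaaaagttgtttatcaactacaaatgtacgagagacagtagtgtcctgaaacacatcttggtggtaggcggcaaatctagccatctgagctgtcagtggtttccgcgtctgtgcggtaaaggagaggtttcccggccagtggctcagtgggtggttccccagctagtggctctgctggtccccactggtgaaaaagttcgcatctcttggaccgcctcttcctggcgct
Mavs, chr2:131233813-131234062, plus strand: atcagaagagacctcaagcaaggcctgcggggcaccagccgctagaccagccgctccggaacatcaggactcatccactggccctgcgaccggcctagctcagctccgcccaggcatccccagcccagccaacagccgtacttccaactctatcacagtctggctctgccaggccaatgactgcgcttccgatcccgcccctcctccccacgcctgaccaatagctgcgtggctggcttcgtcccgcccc
Ifih1, chr2:62646256-62646505, minus strand: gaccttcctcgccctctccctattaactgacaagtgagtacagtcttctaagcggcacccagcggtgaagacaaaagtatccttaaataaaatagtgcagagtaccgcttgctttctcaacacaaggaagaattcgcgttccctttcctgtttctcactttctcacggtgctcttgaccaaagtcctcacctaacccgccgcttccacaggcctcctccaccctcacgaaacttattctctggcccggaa
Ifih1, stretch in the first exon, chr2:62646206-62646235, minus strand: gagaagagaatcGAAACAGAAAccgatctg
Samhd1, chr2:157135266-157135346, minus strand: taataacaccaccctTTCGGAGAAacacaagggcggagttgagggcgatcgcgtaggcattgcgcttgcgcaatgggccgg
The match in Ifih1 has the letters GAAANNGAAA of an interferon-stimulated response element, and 3.44% of 32841 mouse promoter windows hold one. The match in Samhd1 has the letters TTCNNNGAA of a gamma interferon activation site, which 8.30% of the windows hold. The NF-κB letters GGGANNNTCC, which 4.59% of windows hold, were in none of the members' windows. A match describes letters and is not evidence of binding.

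Depth was 13936902 to 18519926 counts per library in the cells and 15391544 to 26928365 in the tumors. In both experiments the DMSO or vehicle libraries were compared with the YJ1206 libraries, and p-values measure the spread between 3 libraries a group. The DMSO and YJ1206 cell libraries are numbered in different runs of library names, so in the cells a batch effect cannot be told apart from the treatment. In tumors, library 3 of each group lay between libraries 1 and 2 for 88.2% (vehicle) and 87.4% (YJ1206) of the genes that differed between those libraries, against 15.5% to 31.5% for the other libraries. For the members this held for 6 of 10 in vehicle and 7 of 10 in YJ1206 tumors. The paper states in general that its data came from independent biological replicates. The sources used here do not name the tumor behind each library, so this could not be checked for library 3 of either group. The tumor SDs and p-values count it as a replicate (n = 3), and the members are therefore also given without library 3 of both groups. Leukocyte markers were all at or under 3 counts in every cell library, whereas all 6 were read in every tumor library. In bulk tumors, fewer cells of a type and less RNA per cell cannot be told apart.

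**Figure D1:**
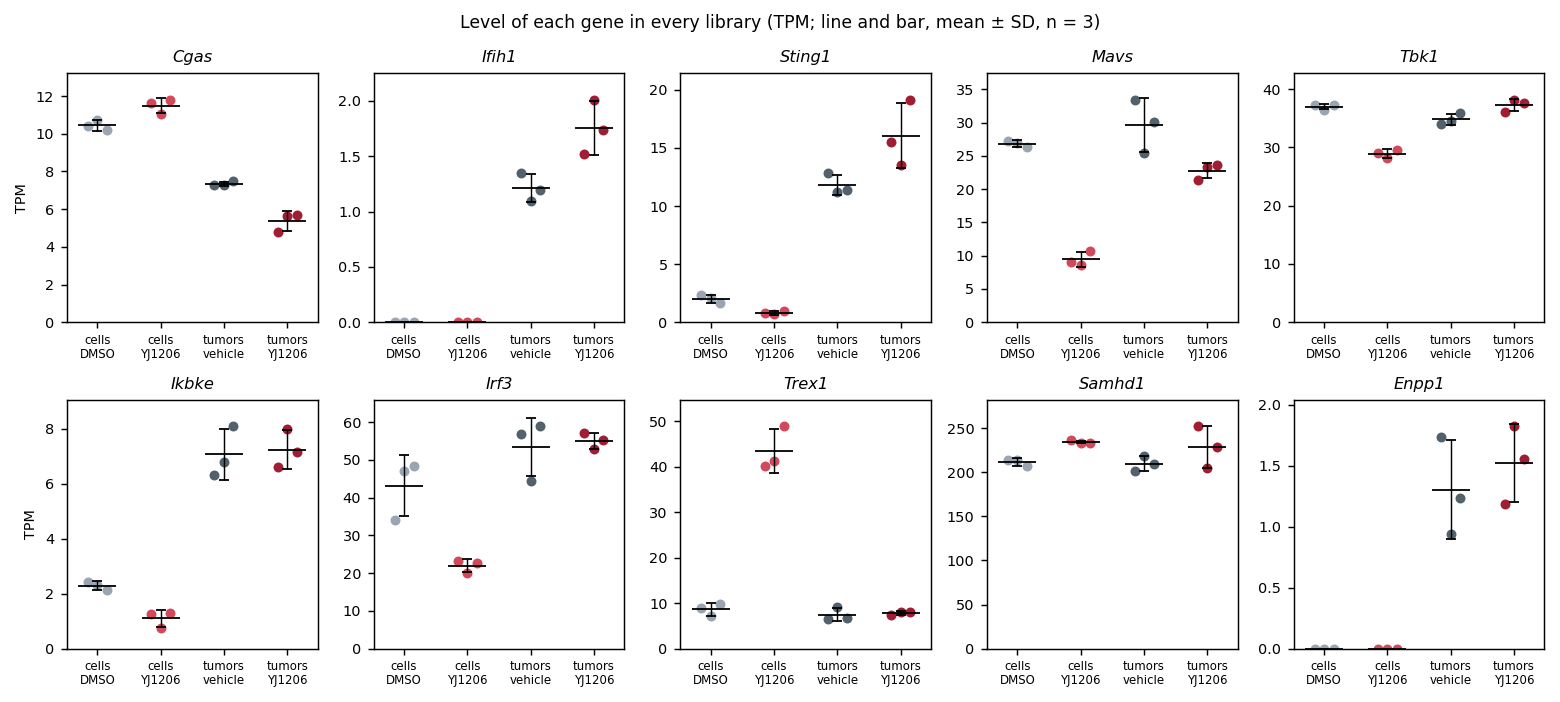
Level of each of the 10 genes in TPM (linear axis from 0) in every library of DMSO and YJ1206 cells and vehicle and YJ1206 tumors. Points are libraries, and line and bar are mean ± SD (n = 3). Ifih1 and Enpp1 sit at 0 in all cell libraries, Sting1 and Ikbke sit higher in tumors than in cells, and Trex1 sits near 43.5 TPM only in YJ1206 cells.

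The cultured cells carried 8 of the 10 transcripts, in levels that ran from Samhd1 down to Sting1. TPM is scaled for gene length, so levels of different genes may be set side by side. In DMSO cells Samhd1 stood at 212 ± 4.01 TPM (SD, n = 3), and Irf3 followed at 43.2 ± 8.03, Tbk1 at 37.0 ± 0.47, Mavs at 26.8 ± 0.47, Cgas at 10.4 ± 0.29 and Trex1 at 8.60 ± 1.40 TPM. Ikbke was at 2.29 ± 0.16 and Sting1 at 2.01 ± 0.35 TPM. Libraries of neighbours in this order did not overlap, except those of Irf3 with Tbk1 and of Ikbke with Sting1. The sensor of DNA was thus read at a higher level than its adaptor in the cultured cells. In vehicle tumors the order of the first 4 genes was the same, but Sting1 came next at 11.8 ± 0.88 TPM, above Trex1, Cgas and Ikbke at 7.48 ± 1.45, 7.34 ± 0.12 and 7.06 ± 0.92 TPM, whose libraries overlapped. Enpp1 and Ifih1 closed the order in vehicle tumors at 1.30 ± 0.40 and 1.21 ± 0.13 TPM, also with overlapping libraries.

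Ifih1 and Enpp1 had 0 counts in all 6 cell libraries. A count of 0 allows up to 3 counts per library, which is 0.162 to 0.215 CPM (counts scaled to library size) at this depth and covers counting error only. In vehicle tumors Ifih1 had 74, 79 and 52 counts and Enpp1 had 102, 62 and 51 counts. Set against that limit, Ifih1 was at least 19.5-fold and Enpp1 at least 20.7-fold higher in vehicle tumors than in DMSO cells. On TPM rescaled to the genes of both tables, the level in vehicle tumors over that in DMSO cells was 5.67 for Sting1 and 2.97 for Ikbke. It was 1.19 for Irf3, 1.06 for Mavs, 0.954 for Samhd1, 0.905 for Tbk1, 0.836 for Trex1 and 0.676 for Cgas. These ratios are a description without a test, since the tables were made separately and the labels name polyA RNA for cells and total RNA for tumors. For Sting1 the measure mattered, as it stood at 1.21 ± 0.26 CPM in DMSO cells and 13.5 ± 1.25 CPM in vehicle tumors, a wider gap than in TPM. The summed TPM of macrophage and monocyte markers was 11.6 to 16.4 in cells and 203 to 354 in tumors, that of fibroblast markers 2.93 to 7.03 and 165 to 735, and that of endothelial markers 0 to 0.326 and 50.1 to 59.7. The part of these cell types in the tumor levels was not tested.

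In cells, 6 of the 8 members that could be tested differed between YJ1206 and DMSO libraries, with 3 higher and 3 lower with YJ1206. The background was large, since 76.1% of the 11826 genes tested had an adjusted p-value under 0.05 (37.8% higher and 38.3% lower), so the 75.0% among the members is near it. The median log2 fold change was 0.03 over the members and -0.02 over all genes. The split of all genes depended on the scaling, with 4467 higher and 4528 lower by TMM, 3314 and 5876 by total counts, and 2538 and 6159 by log2(TPM + 1). Every call below is from edgeR with Benjamini-Hochberg adjustment over all genes tested, and CPM values are scaled by TMM.

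The DNA sensor Cgas (ENSMUSG00000032344.17, chr9:78430526-78443237, minus strand) was higher with YJ1206 in cells. It had 462, 461 and 454 counts in DMSO libraries and 464, 407 and 432 in the smaller YJ1206 libraries. Scaled, this was 23.5 ± 0.51 against 32.4 ± 1.44 CPM, without overlap, as in 77.5% of all genes. The log2 fold change was 0.47 (standard error, SE, 0.068, adjusted p = 7.83e-07, edgeR). In TPM the libraries stood at 10.4, 10.8 and 10.2 against 11.7, 11.02 and 11.8, a log2(TPM + 1) difference of 0.13 that did not pass the threshold (adjusted p = 0.12, limma). With total counts the log2 change was 0.28 and passed. TPM and TMM differed in general, as the median of all genes was -0.24 on log2(TPM + 1) and -0.20 with total counts alone.

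Sting1 (ENSMUSG00000024349.10, chr18:35733679-35740554, minus strand), the adaptor of the cGAMP signal, was near the limit of reading in cells. It had 23, 17 and 27 counts under DMSO against 16, 14 and 20 under YJ1206, which is 1.14 ± 0.24 and 1.25 ± 0.26 CPM. The libraries overlapped, and the log2 fold change of 0.12 had an SE of 0.34 (adjusted p = 0.75, edgeR). The TPM told another order, with 2.33, 2.05 and 1.64 in DMSO libraries above 0.757, 0.683 and 0.981 in YJ1206 libraries (log2(TPM + 1) difference -0.73, adjusted p = 0.00093, limma). The transcript length implied by counts over TPM was 209% to 213% of the DMSO mean in the YJ1206 libraries and 72.3% to 142% in the DMSO libraries. The direction of Sting1, which has 10 annotated transcripts, thus differed between scaled counts and TPM, and no change is called.

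Mavs (ENSMUSG00000037523.13, chr2:131234063-131248025, plus strand), the adaptor of the RNA sensors, had the largest fall among the members. It had 877, 872 and 850 counts under DMSO against 257, 230 and 283 under YJ1206, so the groups lay far apart. In CPM this was 44.3 ± 1.26 against 19.2 ± 2.30, a log2 fold change of -1.21 (SE 0.073, adjusted p = 2.03e-14, edgeR). Its TPM went from 26.8 ± 0.47 to 9.43 ± 1.07, below that of Cgas.

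Of the kinases that both adaptors recruit, Ikbke fell and Tbk1 did not pass the threshold. Ikbke (ENSMUSG00000042349.13, chr1:131254343-131279606, minus strand) had 86, 83 and 77 counts under DMSO against 33, 22 and 39 under YJ1206, without overlap. The log2 fold change was -0.84 (SE 0.22, adjusted p = 0.0011, edgeR). Tbk1 (ENSMUSG00000020115.3, chr10:121546455-121586787, minus strand), read at 1184 to 1247 and 781 to 846 counts, gave 62.5 ± 1.21 and 59.9 ± 0.78 CPM. Its log2 fold change was -0.06 (SE 0.046, adjusted p = 0.23, edgeR), and -0.35 on log2(TPM + 1) (adjusted p = 0.000227, limma). Irf3 (ENSMUSG00000003184.15, chr7:44997648-45002848, plus strand), the transcription factor that these kinases phosphorylate, had 499, 549 and 579 counts under DMSO against 310, 267 and 287 under YJ1206. It fell from 27.7 ± 1.87 to 21.5 ± 1.14 CPM (-0.37 on the log2 scale, SE 0.077, adjusted p = 1.06e-04, edgeR). Its TPM went from 43.2 ± 8.03 to 22.0 ± 1.69, a larger log2(TPM + 1) difference of -0.93 (adjusted p = 0.00042, limma). Irf3 shares 88 exonic bases with Bcl2l12 on the other strand, which had a log2 fold change of -0.38 (adjusted p = 0.027, edgeR).

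Trex1 and Samhd1, whose enzymes remove cytosolic DNA and deoxynucleotides, were higher with YJ1206 in cells. Samhd1 (ENSMUSG00000027639.16, chr2:157097533-157135265, minus strand) went from 365 ± 4.86 to 450 ± 2.86 CPM without overlap (0.30 on the log2 scale, SE 0.026, adjusted p = 4.07e-11, edgeR), and by 0.12 with total counts and 0.15 on log2(TPM + 1), which both passed. Trex1 (ENSMUSG00000049734.9, chr9:109057933-109059734, minus strand) had 86, 68 and 97 counts under DMSO against 348, 341 and 401 under YJ1206. The log2 fold change was 2.66 (SE 0.12, adjusted p = 2.67e-17, edgeR), the largest change among the members. In TPM, Trex1 rose to 43.5 ± 4.75 and was second only to Samhd1 in YJ1206 cells.

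All 1147 exonic bases of Trex1 lie within exons of Atrip on the same strand, so the counts of these genes depend on how reads were divided between them. Atrip encodes the partner of the checkpoint kinase ATR. Atrip had 600, 579 and 529 counts under DMSO against 325, 308 and 269 under YJ1206 in cells, while the counts of Trex1 went the other way. Trex1 held 12.8% ± 2.51 of the summed counts of this pair in DMSO cells and 54.7% ± 4.48 in YJ1206 cells. With the counts of both merged into a single gene, the log2 fold change was 0.57 (SE 0.059, adjusted p = 1.48e-09, edgeR). A sum that includes the falling Atrip must rise less than Trex1 alone, so the merged value describes the pair and is not an estimate for Trex1.

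**Figure D2:**
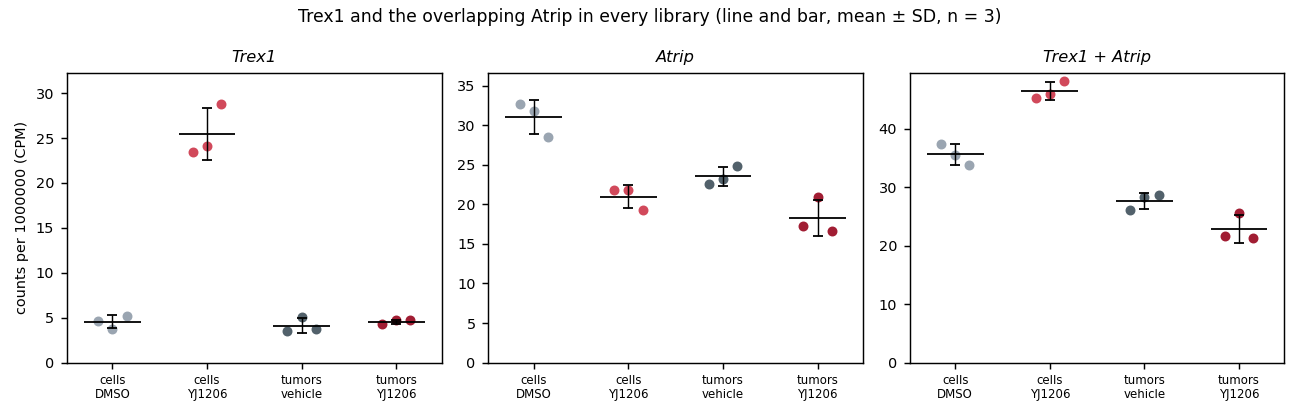
CPM of Trex1, of Atrip and of their sum in every library (linear axes, points are libraries, line and bar are mean ± SD, n = 3). Here CPM is scaled to the total counts of the library, without TMM. In cells Trex1 rises with YJ1206 as Atrip falls, and the sum moves from 35.6 ± 1.77 to 46.4 ± 1.48 CPM.

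In tumors, YJ1206 moved 2 of the 10 members, Ifih1 higher and Cgas lower. That is 20.0% of the members, where 26.8% of the 15558 genes tested were called (11.9% higher and 14.9% lower). The median log2 fold change was 0.18 over the members and 0.01 over all genes. Neither call held without library 3 of both groups, where 1 of 15684 genes was called (0.00638%) and 3068 had an unadjusted p-value under 0.05 (edgeR).

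Ifih1 (ENSMUSG00000026896.14, chr2:62595798-62646255, minus strand) had 74, 79 and 52 counts in vehicle tumors and 80, 124 and 101 in YJ1206 tumors. Scaled, this was 3.22 ± 0.22 against 5.04 ± 0.61 CPM, without overlap, as in 44.6% of all genes. The log2 fold change was 0.65 (SE 0.16, adjusted p = 0.021, edgeR). It was 0.66 with an adjusted p of 0.25 without library 3 of both groups, and the call was also lost without YJ1206 library 2 or 3 or vehicle library 3 (adjusted p = 0.081, 0.090 and 0.070), and on log2(TPM + 1) (0.31, adjusted p = 0.085, limma). Of the 6 leukocyte markers, Cd52 held most of the summed TPM, with 79.5, 300.5 and 169 TPM in vehicle tumors and 349, 362 and 367 in YJ1206 tumors. The other 5 summed to 67.6, 59.0 and 66.5 TPM against 64.1, 84.5 and 72.4, and the groups overlapped. The sum of neutrophil markers was lower with YJ1206 and did not overlap (21.0 to 28.1 against 11.8 to 17.4 TPM), although Csf3r and Retnlg each overlapped. The sum of dendritic cell markers was higher with YJ1206 and did not overlap (3.97 to 4.93 against 5.37 to 5.82 TPM). Of these markers only Siglech and Zbtb46 did not overlap, while Flt3, Itgax, Xcr1 and Clec9a did. For single genes on CPM, 44.6% of all genes tested did not overlap. The sums of macrophage and monocyte markers overlapped (203 to 288 against 273 to 354 TPM), as did those of T cell markers (9.24 to 12.4 against 9.65 to 11.4 TPM). Within the macrophage list Adgre1, C1qa, C1qb, C1qc and Fcgr1 were higher without overlap, and the others overlapped. Most of the T cell sum was Cd3d, which DMSO cells also carried (3.44 to 5.71 TPM). Cd8a was higher without overlap (1.90 to 2.74 against 3.36 to 3.88 TPM), and the other T cell markers overlapped. Skeletal muscle markers summed to 695, 26.6 and 420.3 TPM in vehicle tumors and 11.05 to 13.4 in YJ1206 tumors, so vehicle libraries 1 and 3 stood apart. The part of these cell types in the tumor differences was not tested.

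Cgas in tumors had 385, 477 and 270 counts with vehicle and 222, 318 and 279 with YJ1206, or 17.6 ± 0.29 against 13.6 ± 1.26 CPM. All YJ1206 libraries lay below all vehicle libraries, and the log2 fold change was -0.37 (SE 0.10, adjusted p = 0.032, edgeR). It was -0.42 with an adjusted p of 0.26 without library 3 of both groups. The call was kept in 1 of 6 fits that left out a single library, the one without vehicle library 2. The summed TPM of prostate epithelium markers was 364 to 367 in vehicle tumors and 582 to 624 in YJ1206 tumors, so it moved the other way, and its part was not tested.

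The other 8 members did not pass the threshold in tumors, nor did they without library 3 of both groups, where their log2 changes ran from -0.32 for Mavs to 0.45 for Ikbke (adjusted p = 0.35 and 0.28, edgeR). Mavs stood at 51.9 ± 6.04 and 42.2 ± 2.51 CPM (-0.30 on the log2 scale, SE 0.0998, adjusted p = 0.064, edgeR), and passed without vehicle library 2 (-0.38, adjusted p = 0.0095). Sting1 had 329, 359 and 191 counts with vehicle and 307, 328 and 337 with YJ1206, a log2 fold change of 0.26 (SE 0.11, adjusted p = 0.13, edgeR). Its libraries overlapped in CPM. Tbk1 gave 0.17 (SE 0.062, adjusted p = 0.077) and Ikbke 0.36 (SE 0.13, adjusted p = 0.074), each without overlap (edgeR). Irf3 gave 0.03 (SE 0.10, adjusted p = 0.87, edgeR). Samhd1 gave 0.18 (SE 0.081, adjusted p = 0.14, edgeR), and passed without vehicle library 2 (0.24, adjusted p = 0.038). Enpp1 (ENSMUSG00000037370.13, chr10:24637914-24712159, minus strand) was at 102, 62 and 51 counts with vehicle and 60, 108 and 87 with YJ1206, and its groups overlapped (0.31, SE 0.28, adjusted p = 0.45, edgeR). Trex1 had 77, 138 and 58 against 78, 105 and 91 counts (0.13, SE 0.19, adjusted p = 0.65, edgeR). Merged with Atrip it gave -0.27 (adjusted p = 0.086).

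**Figure D3:**
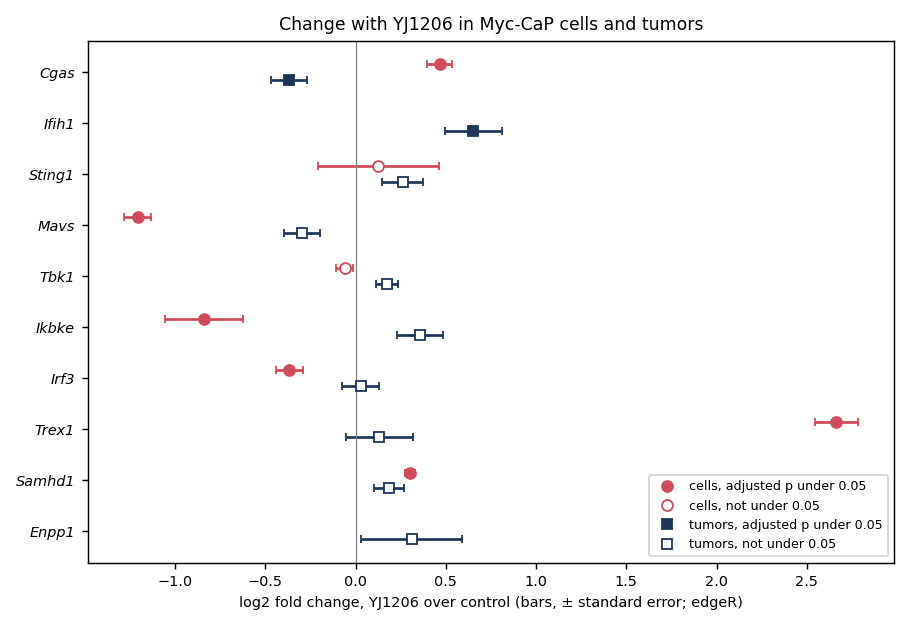
Log2 fold change of each gene with YJ1206 in cells (circles) and tumors (squares), with bars of ± 1 standard error and filled symbols where the adjusted p-value was under 0.05 (edgeR). Trex1 lies at 2.66 and Mavs at -1.21 in cells, whereas all tumor values lie between -0.37 and 0.65, and Ifih1 and Enpp1 have no cell value.

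The effect of YJ1206 was larger or opposite in cells for several members, as tested in a single fit over all 12 libraries. Of the 8 members that could be fitted, 6 differed between tumors and cells, where 46.8% of 15423 genes did (20.8% higher and 26.0% lower). For Cgas the difference, tumors minus cells, was -0.87 on the log2 scale (SE 0.11, adjusted p = 3.53e-05, edgeR), with 0.45 in cells and -0.42 in tumors. For Mavs it was 0.88 (SE 0.14, adjusted p = 1.91e-04, edgeR) and for Ikbke 1.17 (SE 0.25, adjusted p = 0.0018, edgeR). For Trex1 it was -2.57 (SE 0.24, adjusted p = 1.73e-06, edgeR), and -0.87 with Atrip merged (adjusted p = 3.73e-05). Tbk1 and Irf3 passed with 0.20 (adjusted p = 0.027) and 0.37 (adjusted p = 0.043, edgeR), but were called in 9 and 6 of 20 other fits. Samhd1 gave -0.15 (adjusted p = 0.15) and Sting1 0.11 (adjusted p = 0.84, edgeR), while Sting1 passed on log2(TPM + 1) with 1.16 (adjusted p = 0.00051, limma). Ifih1 and Enpp1 have no cell value to compare.

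A list of 125 other genes of these pathways, in 6 groups by role, was described beside the members. In cells 74 of 94 tested genes were called, which is 78.7% (35 higher and 39 lower) and near the 76.1% of all genes tested. By total counts the split in cells was 24 higher and 48 lower, and on log2(TPM + 1) it was 16 and 52. In tumors 49 of 123 were called, which is 39.8% (29 higher and 20 lower), where 26.8% of all genes tested were. The counts by role that follow stand against these same shares of all genes. Without library 3 of both tumor groups, 0 of the list were called by edgeR and 35 had an unadjusted p-value under 0.05. Of the 20 pathway genes named below as called in tumors, 10 lost the call in that fit alone among 14 other fits. The calls of the others held in 6 of the 14 for Irf8 and Tlr7, 7 for Tank, 8 for Rnaseh2c, 9 for Oas2 and Rnf26, 10 for Chuk, Sp110 and Sp140, and 11 for Lrrc8e. Of the 124 genes found in both tables, 16 (12.9%) were at or under 3 counts in every cell library and over 3 in every tumor library. That is 13.1% of the 122 list genes that were over 3 counts in every tumor library, against 12.8% of 15537 such genes in all, so the list is near the background. Among the RNA sensors and MAVS partners this held for 6 of 24 genes, namely Oas1a, Oas1c, Oas1g, Oas2, Oasl1 and Oasl2, and among the DNA sensors for 4 of 20, Zbp1, Ifi207, Ifi209 and Mndal. Among genes of STING trafficking, turnover and cGAMP transport it held for 1 of 30, Slc46a3.

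Among other DNA sensors and cGAS partners, 4 genes were higher and 8 lower in cells, of 15 tested. Pqbp1, a cofactor of cGAS, rose from 31.8 ± 1.01 to 113 ± 5.41 CPM (1.83 on the log2 scale, adjusted p = 4.57e-22, edgeR) and Hmgb1, a chromatin protein that binds DNA, from 488 ± 11.1 to 676 ± 7.73 CPM (0.47, adjusted p = 1.48e-15). Hmgb1 gave 0.06 on log2(TPM + 1), which did not pass (adjusted p = 0.064, limma). Prkdc and Xrcc6, which encode parts of the DNA-PK complex, fell by 1.56 and 0.79 on the log2 scale (adjusted p = 1.14e-17 and 2.72e-13, edgeR). In tumors 1 was higher and 9 lower, of 20 tested. Hmgb2 fell from 184 ± 5.07 to 75.5 ± 21.4 CPM (-1.28, adjusted p = 0.0037, edgeR), and Banf1, which restrains cGAS on chromatin, from 114 ± 11.5 to 67.3 ± 5.25 CPM (-0.76, adjusted p = 0.0023).

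Among RNA sensors and MAVS partners, 5 of 14 were higher and 3 lower in cells (3 and 6 on log2(TPM + 1)), and 10 of 24 higher and 2 lower in tumors. The sensor kinase Eif2ak2 fell from 31.5 ± 1.38 to 16.5 ± 2.82 CPM in cells (-0.93, adjusted p = 3.30e-10, edgeR), and Dhx36 fell by 0.58 on the log2 scale (adjusted p = 1.48e-13). Dhx9 and Zc3hav1 rose in cells by 0.42 and 0.37 (adjusted p = 9.64e-15 and 5.15e-12, edgeR). In tumors Oasl2 rose from 8.22 ± 1.15 to 19.6 ± 3.58 CPM (1.25, adjusted p = 0.0031, edgeR) and Oas2, which makes the activator of RNase L, from 10.2 ± 3.50 to 23.6 ± 6.93 CPM (1.20, adjusted p = 0.021). The helicases Ddx3x and Dhx15 fell by 0.48 and 0.43 on the log2 scale (adjusted p = 0.0027 and 0.0031, edgeR). Oas2 and Oasl2 had at most 2 counts in any cell library.

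In the endosomal Toll-like receptor branch, 3 of 10 tested genes were higher and 5 lower in cells, and 4 of 13 were higher in tumors. In tumors 0 were lower by edgeR, with 0 at an unadjusted p-value under 0.05, and 0 were lower by DESeq2 or limma. By limma on log2(TPM + 1), 1 was lower at an unadjusted p-value under 0.05. The adaptor Myd88 rose from 21.2 ± 0.73 to 54.5 ± 2.62 CPM in cells (1.36, adjusted p = 4.87e-17, edgeR) and Slc15a4 by 0.90 (adjusted p = 1.48e-11). The adaptor Ticam1 and the kinase Irak4 fell by 0.94 and 0.89 (adjusted p = 1.12e-06 and 2.22e-07, edgeR). In tumors the receptors Tlr13 and Tlr7 rose by 0.84 and 0.82 (adjusted p = 0.0050 and 0.037, edgeR).

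All 14 tested kinase scaffolds and transcription factors were called in cells, where 76.1% of all genes were, with 6 higher and 8 lower, and 3 of 17 were higher and 3 lower in tumors. The scaffold Tank, which binds TBK1, fell in both, from 39.7 ± 2.80 to 23.7 ± 0.55 CPM in cells (-0.74, adjusted p = 1.56e-10, edgeR) and from 38.7 ± 1.83 to 31.9 ± 0.87 CPM in tumors (-0.28, adjusted p = 0.026). The kinase Chuk rose by 0.44 in cells (adjusted p = 2.08e-10) and fell by 0.36 in tumors (adjusted p = 0.015, edgeR). In cells Traf2 rose by 0.56 and Ikbkb fell by 0.67 (adjusted p = 2.61e-06 and 2.89e-11, edgeR). In tumors Irf1 rose from 38.1 ± 2.04 to 60.2 ± 0.82 CPM (0.66, adjusted p = 0.0014, edgeR) and Irf8, a factor of myeloid cells, by 0.40 (adjusted p = 0.029).

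Other nucleases and limiters were called lower for 8 of 15 genes and higher for 3 in cells, with a median log2 fold change of -0.54, and for 4 and 4 of 19 in tumors. In cells Pnpt1, a mitochondrial RNase, fell from 110 ± 4.70 to 56.1 ± 4.65 CPM (-0.98, adjusted p = 4.96e-16, edgeR) and Lsm11 by 0.86 (adjusted p = 1.60e-07). Rnaseh2b, a subunit of RNase H2, rose by 0.36 (adjusted p = 6.11e-05, edgeR), and gave 0.05 on log2(TPM + 1), which did not pass (adjusted p = 0.52, limma). The flap endonuclease Fen1 rose by 0.28 in cells (adjusted p = 2.80e-08) and fell by 1.02 in tumors (adjusted p = 0.0055, edgeR), and in cells it was -0.04 on log2(TPM + 1). In tumors Rnaseh2c fell by 0.73 (adjusted p = 0.030), and the nuclear body genes Sp110 and Sp140 rose by 0.99 and 0.73 (adjusted p = 0.016 and 0.019, edgeR).

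Genes of STING trafficking, turnover and cGAMP transport were higher for 14 of 26 and lower for 7 in cells, which turned to 7 and 12 on log2(TPM + 1), and higher for 7 of 30 and lower for 2 in tumors. In cells Stim1, which holds STING at the endoplasmic reticulum, rose from 54.4 ± 1.98 to 122 ± 7.20 CPM (1.16, adjusted p = 1.59e-18, edgeR) and Tollip, which stabilises STING, from 43.7 ± 2.59 to 88.9 ± 5.78 CPM (1.02, adjusted p = 8.33e-16). Lrrc8c, a channel subunit that passes cGAMP, and Yif1a, a trafficking protein, fell by 1.13 and 1.01 (adjusted p = 4.74e-08 and 1.80e-11, edgeR). In tumors Usp18, a deISGylase that is itself an interferon-stimulated gene, rose from 4.17 ± 2.07 to 14.3 ± 1.98 CPM (1.76, adjusted p = 0.0094, edgeR). The channel subunit Lrrc8e rose by 0.75 and Lrrc8b fell by 0.60 (adjusted p = 0.019 and 0.0031, edgeR), and the ubiquitin ligase Rnf26 fell by 0.53 (adjusted p = 0.030).

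**Figure D4:**
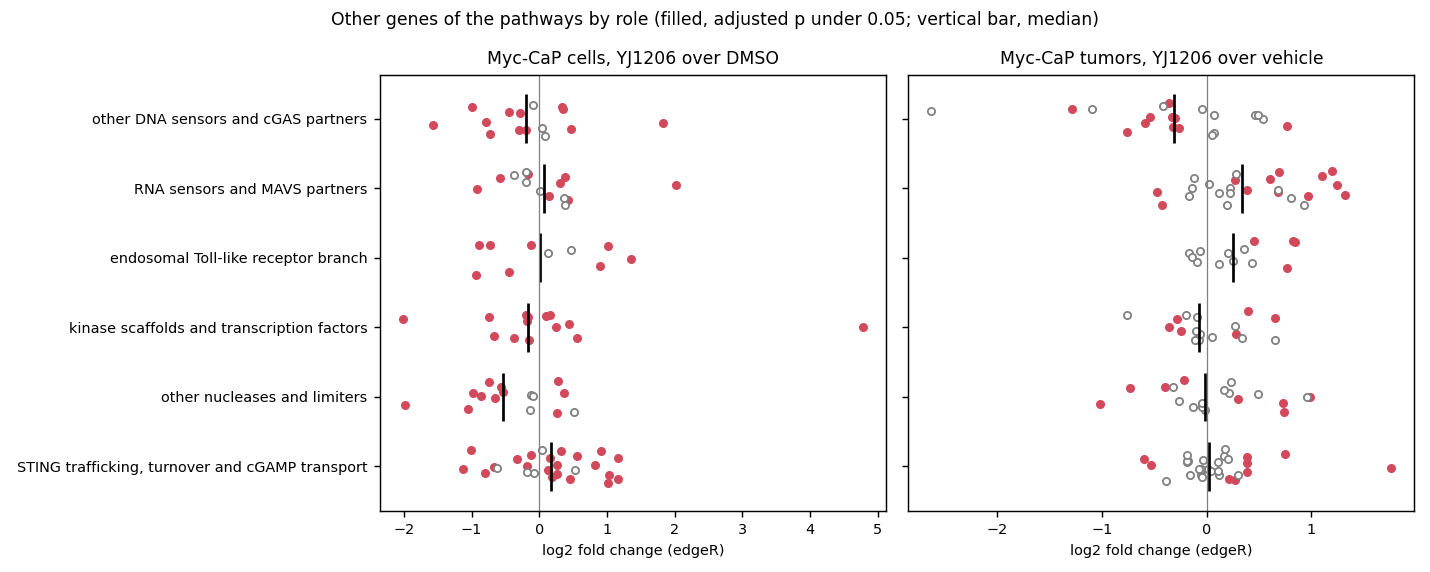
Log2 fold change (edgeR) of the other pathway genes by role, in cells on the left and tumors on the right. Filled points have an adjusted p-value under 0.05 and the vertical bar is the median of the tested genes, which lies at -0.54 for other nucleases and limiters in cells and at 0.33 for RNA sensors in tumors.

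The genes whose levels ran most like those of Cgas over the 12 libraries were Pold2, Rfc3, Uba2, Gm10184 and Ercc6l, with Pearson r of log2(TPM + 1) between 0.995 and 0.997. Pold2 and Rfc3 encode parts of the replication machinery. Rfc3 stood at 79.5, 95.3, 33.9 and 15.7 TPM in DMSO cells, YJ1206 cells, vehicle tumors and YJ1206 tumors. The genes most like Sting1 were Nfix, Epg5, Pde5a, Adgrl1 and Atg13, with r of 0.99 each. Nfix stood at 17.7, 12.4, 47.8 and 51.7 TPM in the same order. The libraries share their split into cells and tumors, and the genes were chosen from 12948 genes for likeness, so these values are a description without a test.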

How the data were processed

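RNA was sequenced from 12 mouse libraries, 3 for each of DMSO cells, YJ1206 cells, vehicle tumors and YJ1206 tumors, with enzymatic removal of ribosomal RNA in the library protocol of all libraries, although the molecule is given as polyA RNA for cells and total RNA for tumors in the labels. The authors deposited estimated counts per gene, not scaled between libraries, and TPM values, which the authors scaled for length and to a common sum per library. The submitters' processing notes name kallisto and GRCm38 (mm10), with no version given in the sources used here. The estimated counts were rounded and fitted by the quasi-likelihood test of edgeR 4.0.16 (R 4.3.3), after filterByExpr and TMM, on the 6 libraries of each experiment, with Benjamini-Hochberg adjustment over all genes tested and a threshold of 0.05. The difference between experiments was the interaction term over 12 libraries. Alternatives were DESeq2 1.42.0, limma 3.58.1 on log2(TPM + 1) and log2(TPM + 0.1), other scalings, no filter, a replicate block and each library left out. The main edgeR fits were tested on simulated counts in which few genes changed, with as many rises as falls. That does not test the scaling where most genes change, as in the cells, and the other fits were not tested in this way. The members and lists were chosen with earlier results of these data known. Named pathway genes are, per role and experiment, up to 2 of the largest rises and 2 of the largest falls among called genes with at least 5 CPM and no overlap. The 5 genes most like Cgas and Sting1 had at least 1 TPM on average. No libraries of a group had identical counts, and each was kept. Coordinates are from GENCODE vM21 (GRCm38). Of the pathway list, 1 gene was not matched by symbol, and genes of the H2 family were not analysed here.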

Additional observations from a re-analysis of the deposited data

Results flagged for a closer look

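The effect of YJ1206 differed between tumors and cells for 6 of the 8 members that could be fitted in both, by the interaction term over 12 libraries with an adjusted p-value under 0.05 (edgeR). The differences, tumors minus cells on the log2 scale, were -2.57 for Trex1, -0.87 for Cgas, 1.17 for Ikbke, 0.88 for Mavs, 0.37 for Irf3 and 0.20 for Tbk1. Among all genes fitted, 46.8% differed in the same way. For Cgas the direction was opposite, higher in cells and lower in tumors. The value of Trex1 depends on how reads were divided with Atrip, and the merged pair gave -0.87. The fit shares 1 estimate of the spread between cells and tumors, whose biological coefficients of variation were 0.032 and 0.14 when fitted apart. Dosing, exposure time, the RNA named in the labels and a batch effect in cells cannot be told apart from the difference between cells and tumors. The summed markers of leukocytes, macrophages, fibroblasts, endothelium and skeletal muscle, given above, differed between cells and tumors or between tumor groups, and their part in these differences was not tested.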

How the results depend on the processing

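In cells, the fall of Mavs, Ikbke and Irf3 and the rise of Samhd1 and Trex1 kept direction and call in all 13 alternatives, listed with the processing, and in tumors no alternative called Sting1, Tbk1, Ikbke, Irf3, Trex1 or Enpp1. On log2(TPM + 1) and log2(TPM + 0.1), 5 members were lower in cells in place of 3, and 0 were higher in tumors (2 at an unadjusted p-value under 0.05, limma). Sting1 in cells was -0.061 with total counts, -0.73 and -1.22 with the TPM pseudocounts of 1 and 0.1, and -0.045 to 0.27 with 1 library left out. Fen1 in cells was -0.042 and -0.043 with these pseudocounts. Irf3 in tumors was -0.070 to 0.099 with 1 library left out. For the difference between tumors and cells, Sting1 was -0.041 to 0.27 with 1 library left out and -0.010 with tumor libraries 1 and 2 only, but 1.16 and 1.68 with the TPM pseudocounts of 1 and 0.1, Irf3 was 1.02 and Tbk1 0.48 with the pseudocount of 1, and Samhd1 was 0.072 with total counts and 0.010 with both pseudocounts. Members higher in that difference numbered 2 with DESeq2, 2 with RLE size factors, 2 without the filter on low counts, 2 with tumor libraries 1 and 2 only, and 2 to 4 with 1 library left out, against 4, whereas they numbered 3 with the replicate block and 5 with both pseudocounts. The merging of Trex1 and Atrip was chosen after the data were seen, and gave Trex1 -0.27 in tumors.

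Genes called in tumors numbered 1877 to 5724 with 1 library left out, with 1938 when vehicle library 3 was dropped, 2739 for YJ1206 library 2 and 1877 for YJ1206 library 3. With tumor libraries 1 and 2 only, 1 gene was called. Members higher and members lower in tumors each numbered 0 to 2 with 1 library left out, and 0 and 0 with tumor libraries 1 and 2 only (1 and 1 at an unadjusted p-value under 0.05, edgeR). The same replicate numbers did not pair the samples, as no correlation of the deviations of same-numbered libraries was over 0.1. With the replicate block, 8905 genes were called in cells, 3477 in tumors and 6903 in the difference, and in tumors 0 members were higher and 0 lower (2 and 2 at an unadjusted p-value under 0.05, edgeR). On TPM rescaled to the genes of both tables, Cgas in DMSO cells was 10.9, Mavs 27.9, Tbk1 38.5 and Samhd1 220.1, and Samhd1 in YJ1206 cells was 237, each over 1 SD from the deposited level. Depth limits Sting1 in cells, which had 14 to 27 counts a library.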
